A study of Mus musculus with 6 samples.

Results

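Satb1, Lef1, Tcf7, Foxo1, Bach2, Bcl6 and Tox encode transcription factors and a chromatin organiser that lymphocytes use in development, quiescence and memory. They were chosen by symbol from the deposited table of gene counts, where each of the 7 genes has 1 of the 16588 rows, and all 7 passed the filter on low counts. Levels in this same contrast were known when the 7 genes were picked, so their values are given as a description, with no test. The series title names adipose tissue, but each sample's label gives lung, which is used here. The libraries come from activated group 2 innate lymphoid cells (ILC2s) sorted from mouse lung, 3 labelled WT (genotype C57BL/6) and 3 labelled Cnr2 KO. All mice had been given recombinant IL-33 through the nose, 0.5 µg on each of 3 days, with isolation on day 4 and 18 h of culture after sorting. Cnr2 encodes the cannabinoid receptor CB2. The sources used here do not give the kind of Cnr2 allele, the sex and age of the mice, or whether replicates were separate mice or cultures.

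TCF1 (from Tcf7) and LEF1 are sister proteins that bind DNA through an HMG box and can recruit beta-catenin or Groucho corepressors. TCF1 and TOX act early in the innate lymphoid lineage, and TCF1 supports Gata3 expression in ILC2 development. FOXO1 is held in the cytoplasm when AKT phosphorylates it, and in resting lymphocytes it maintains genes of survival, homing and cell cycle arrest. BACH2 and BCL6 are BTB-domain repressors that hold back effector and plasma cell programmes, and SATB1 folds chromatin in developing thymocytes.

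The 6 libraries held 17867541 to 129617689 counts, the largest being WT replicate 2 and the others lying at 19399819 or fewer. Levels are in CPM, gene counts scaled to a common library size and corrected by TMM for library composition, and are given as mean ± SD over 3 libraries. Cnr2 itself stood at 3.99, 3.89 and 3.17 CPM in WT and at 7.55, 7.42 and 7.49 CPM in the Cnr2 KO libraries. Gene counts do not show which exons the reads came from, and the allele is not given, so the genotype could not be checked. Here "KO-labelled" therefore refers to the label alone. All 16 listed ILC2 markers were in the table and summed to 14162 to 14805 CPM in WT and 14318 to 15490 CPM in the KO-labelled libraries. These sums are mostly Il5 and Il2ra, and singly 12 of the 16 were called higher and 3 lower (edgeR), among them Nmur1, the neuromedin U receptor, 9.31-fold higher, the IL-25 receptor gene Il17rb 5.12-fold higher, and Il2ra 2.03-fold lower. Of 12150 genes tested with edgeR's quasi-likelihood test, 66.3% were called at a Benjamini-Hochberg adjusted p under 0.05, 33.1% of them higher and 33.2% lower in the KO-labelled libraries as shares of all tested genes. The 3 and 3 values did not overlap in 68.9% of tested genes.

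Satb1 and Bcl6 had the largest downward differences of the 7 genes, so 1 window before a transcription start is shown for each, from RefSeq on GRCm38.p6. For Satb1 it is the 250 bases before the outermost start, chr17:51833291-51833540 on the minus strand, where GENCODE M21 places an exon of the antisense gene Gm6934. For Bcl6 it is the 250 bases before an internal start, chr16:23981284-23981533 on the minus strand, which lie inside the gene and over no annotated exon. Of the 2 Bcl6 windows, the window with motif matches is shown, and the window before the outermost start has none. Capitals mark matches to TTCCNNGAA, the motif bound by BCL6 and by STAT factors.
Satb1: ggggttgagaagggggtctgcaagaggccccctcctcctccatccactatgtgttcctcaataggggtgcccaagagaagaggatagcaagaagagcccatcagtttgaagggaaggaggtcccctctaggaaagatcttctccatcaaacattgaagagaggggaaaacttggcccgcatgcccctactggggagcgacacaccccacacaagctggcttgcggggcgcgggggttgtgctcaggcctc
Bcl6: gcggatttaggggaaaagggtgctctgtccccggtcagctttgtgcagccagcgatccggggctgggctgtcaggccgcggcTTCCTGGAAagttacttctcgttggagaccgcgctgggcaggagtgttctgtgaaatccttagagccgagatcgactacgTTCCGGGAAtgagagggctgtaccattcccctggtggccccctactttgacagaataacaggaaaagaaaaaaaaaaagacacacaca
The Bcl6 window holds 2 matches, TTCCTGGAA and TTCCGGGAA, which begin 168 and 88 bases before the start and match on both strands. This motif occurs in 4.06% of the 32851 RefSeq windows of that length. The other motifs searched on both strands were CTTTGAA and CTTTGAT for TCF/LEF (4.46% and 3.21% of all windows), GTAAACA for FOXO (3.17%) and TGANTCA for BACH and AP-1, which bind overlapping sites (6.75%). RefSeq gave 15 windows for 6 of the 7 genes, 5 of them for Satb1 and 4 for Lef1, and Tox had none in the table. Only the printed Bcl6 window among these 15 held any of the 5 motifs, against 19.6% of all windows. A match or its absence in such a window describes letters and says nothing of binding.

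Satb1 (ENSMUSG00000023927.15, chromosome 17, 51736187 to 51833290, minus strand) was high in WT and far lower in the KO-labelled libraries. It had 7037, 51003 and 7206 counts in WT replicates 1, 2 and 3, or 370, 395 and 381 CPM. The KO-labelled replicates had 155, 183 and 187 counts, or 7.96, 9.77 and 10.4 CPM. Every WT library was therefore far above every KO-labelled one, at 382 ± 12.7 against 9.37 ± 1.25 CPM. The log2 fold change, KO-labelled minus WT, was -5.35 (SE 0.07), or 40.8-fold lower. Of the 12150 tested genes, 37 including Satb1 lay as far or farther in that direction.

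Of the annotated genes that overlap Satb1, the 4 that passed the low-count filter were also lower in the KO-labelled libraries. The table holds all 6 genes that GENCODE M21 places over Satb1, namely E430014B02Rik, C230085N15Rik, Gm36931, 5830444F18Rik and Gm37248 on its strand and Gm6934 on the other. The most abundant, C230085N15Rik, stood at 9.09, 9.27 and 5.34 CPM in WT and at 0.359, 0.267 and 0.61 CPM in the KO-labelled libraries. The 4 that passed the low-count filter did so on their WT counts, so their values are given as a description, with no test. Their log2 fold changes were -5.91 for Gm37248, -5.38 for E430014B02Rik, -4.29 for C230085N15Rik and -3.69 for 5830444F18Rik. Gm36931 and Gm6934, which share 156 and 128 exonic bases with Satb1, were too low to test, and the groups overlapped for Gm36931. No source used here states the counting rule or whether it used strand, and reads of these genes and of unspliced Satb1 RNA cannot be told apart.

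Bcl6 (ENSMUSG00000022508.5, chromosome 16, 23965052 to 23988852, minus strand), the repressor that germinal centre B cells and follicular helper T cells depend on, was low in all 6 libraries. Its counts were 72, 404 and 58 in WT and 14, 19 and 18 in the KO-labelled libraries. These correspond to 3.78, 3.13 and 3.06 CPM against 0.719, 1.01 and 0.998 CPM. The lowest WT library stood above the highest KO-labelled one, and the means of 3.32 ± 0.397 and 0.911 ± 0.166 CPM gave a 3.65-fold lower level (log2 fold change -1.86, SE 0.27).

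Tcf7 (ENSMUSG00000000782.15, chromosome 11, 52252371 to 52283014, minus strand) was near the count floor in WT and higher in the KO-labelled libraries. It had 12, 29 and 0 counts in WT, where a count of 0 in replicate 3 allows up to 0.159 CPM (3 counts, counting error only). In the KO-labelled libraries there were 107, 47 and 52 counts. The levels were 0.63, 0.225 and 0 CPM against 5.49, 2.51 and 2.88 CPM. KO-labelled replicate 1 was the highest by a wide margin, yet the lowest of its group still exceeded every WT value. The means of 0.285 ± 0.319 and 3.63 ± 1.63 CPM differed 12.7-fold, a ratio that became 32.3 without WT replicate 1 and 8.49 without WT replicate 3. The fitted log2 fold change was 3.80 (SE 0.52).

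Lef1 (ENSMUSG00000027985.14, chromosome 3, 131110471 to 131224356, plus strand) was abundant in both groups and differed little. Levels were 64.1, 60.2 and 73.2 CPM in WT and 53.4, 53.8 and 59.3 CPM in the KO-labelled libraries. The lowest WT and the highest KO-labelled library were nearly level, with means of 65.8 ± 6.68 and 55.5 ± 3.27 CPM. This was a 1.19-fold lower level (log2 fold change -0.24, SE 0.07), and 4105 of the 12150 tested genes were as far or farther in that direction. Thus Tcf7 and Lef1, whose proteins share a DNA-binding domain, differed in opposite directions and by very unequal amounts.

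Tox (ENSMUSG00000041272.11, chromosome 4, 6686353 to 6991557, minus strand), which encodes an HMG-box factor of early lymphoid commitment, was moderately higher in the KO-labelled libraries. Its levels were 7.98, 6.83 and 7.19 CPM in WT and 13.8, 10.9 and 10.1 CPM in the KO-labelled libraries. No library of either group reached into the other. The means were 7.33 ± 0.591 and 11.6 ± 1.9 CPM, a 1.58-fold difference (log2 fold change 0.68, SE 0.14).

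Foxo1 (ENSMUSG00000044167.6, chromosome 3, 52268336 to 52353221, plus strand), the forkhead factor of lymphocyte quiescence and homing, was slightly lower in the KO-labelled libraries. It stood at 43.4, 44.8 and 49.7 CPM in WT and at 37.4, 37.5 and 34.7 CPM in the other group. The groups were separate, at 46 ± 3.27 and 36.6 ± 1.61 CPM, but the gap was 1.26-fold (log2 fold change -0.33, SE 0.07).

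Bach2 (ENSMUSG00000040270.16, chromosome 4, 32238804 to 32586108, plus strand), the partner of small Maf proteins that restrains effector differentiation, was higher in the KO-labelled libraries. Counts were 20, 194 and 33 in WT and 100, 135 and 104 in the KO-labelled libraries. As levels these were 1.05, 1.5 and 1.74 CPM against 5.14, 7.21 and 5.77 CPM. All KO-labelled values lay above all WT values, and the means of 1.43 ± 0.352 and 6.04 ± 1.06 CPM differed 4.22-fold (log2 fold change 2.05, SE 0.23). The antisense gene Bach2os shares 537 exonic bases with Bach2 and is annotated, but it has no row of its own in the table.

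**Figure D1:**
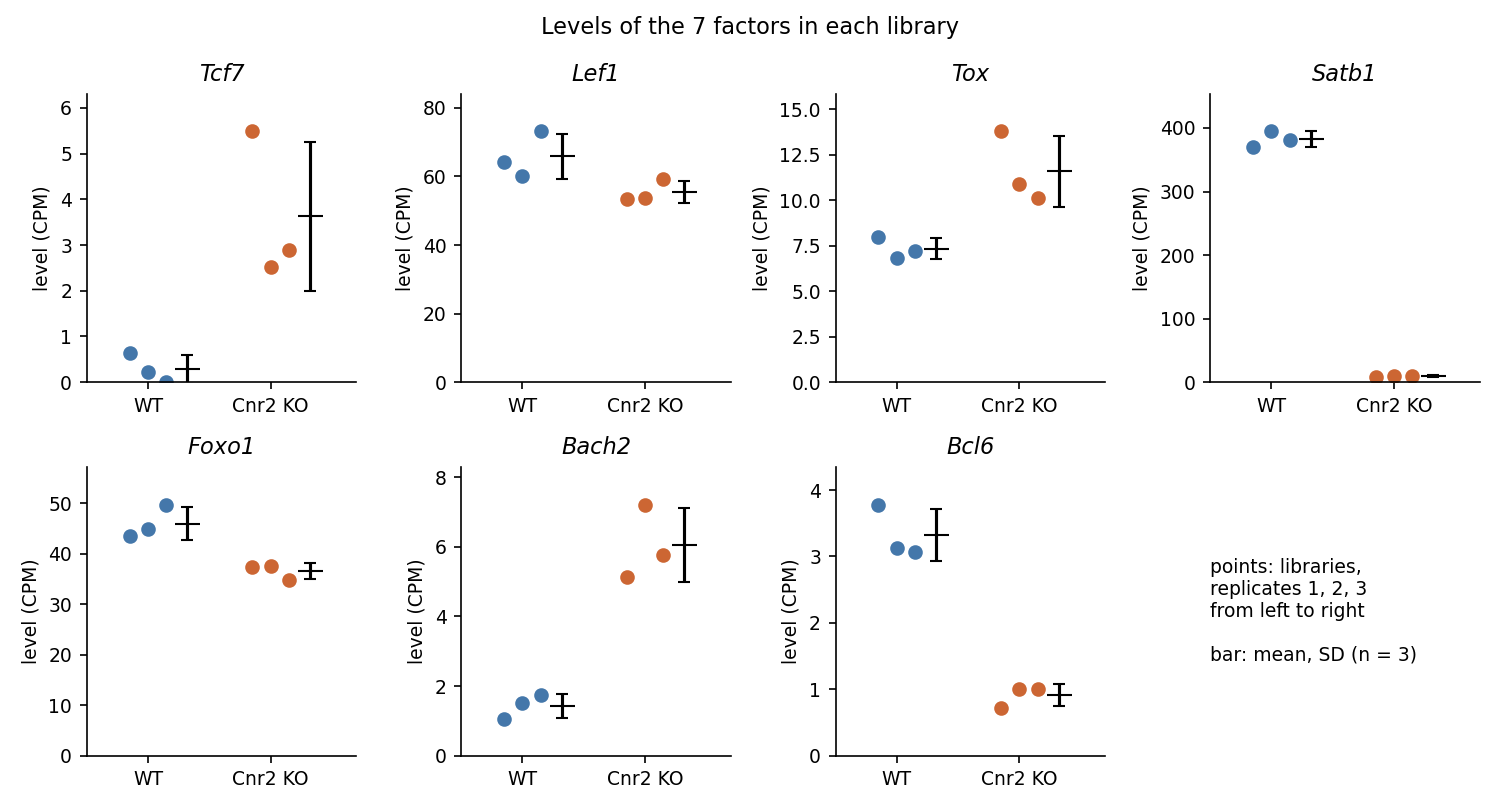
Level in CPM (y axis, from 0, a separate scale in each panel) of the 7 genes in each library, with WT in blue and the KO-labelled libraries in orange, replicates 1 to 3 from left to right, and the mean with its SD beside them (n = 3 each). Satb1 stands at 382 and 9.37 CPM, Tcf7 and Bach2 are near the axis in WT only, and Lef1 and Foxo1 are at similar levels in both groups. The lower end of the WT bar of Tcf7 falls under 0 and is not drawn.

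In all, 3 of the 7 genes (Tcf7, Bach2 and Tox) were higher and 4 (Satb1, Bcl6, Foxo1 and Lef1) were lower in the KO-labelled libraries. The groups did not overlap for any of the 7, beside the 68.9% of all tested genes without overlap. At least 2-fold differences were found in 4 genes, Tcf7 and Bach2 upward and Satb1 and Bcl6 downward. Of the 12150 tested genes, 1096 lay 2-fold or more above WT and 924 lay 2-fold or more under it. The middle 80% of them lay between log2 fold changes of -0.84 and 0.93, a range that contains Tox, Lef1 and Foxo1 and none of the other 4.

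**Figure D2:**
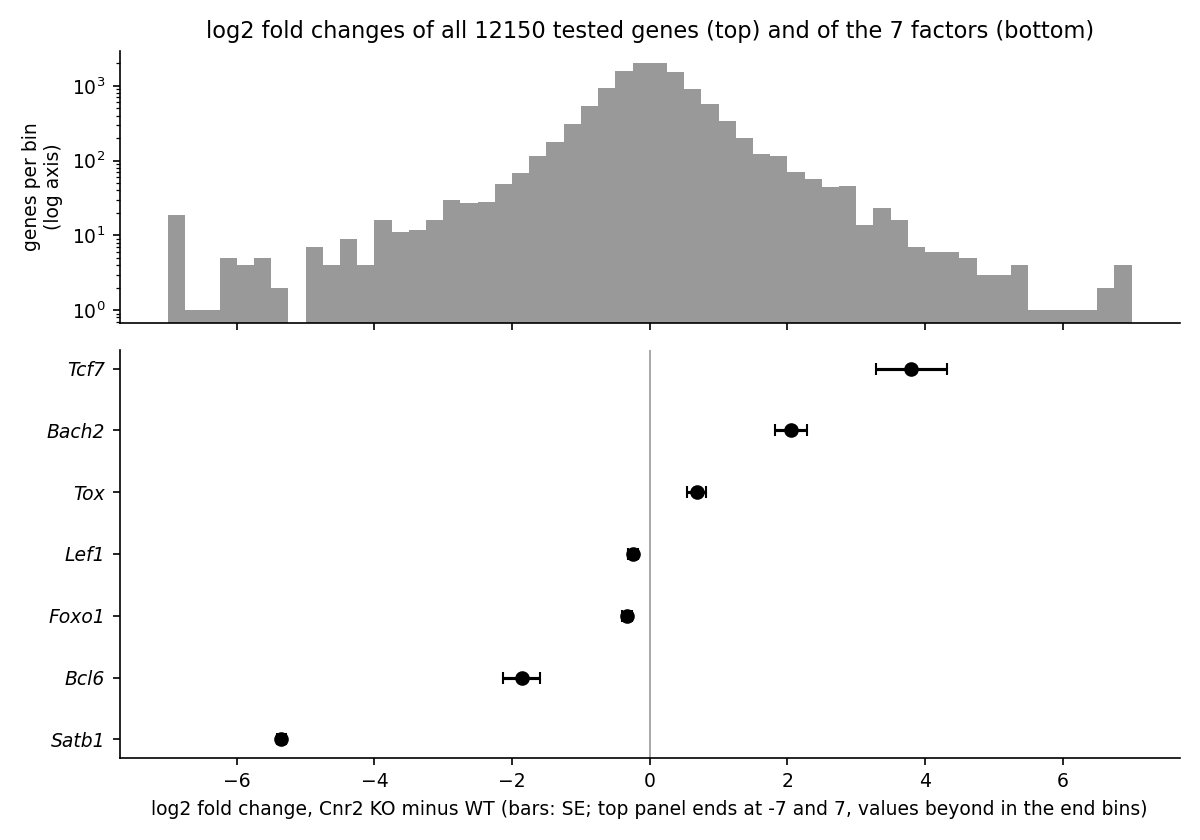
The top panel counts the 12150 tested genes by log2 fold change in bins (y axis on a log scale), and the bottom panel gives each of the 7 genes with its SE as a bar. Satb1 at -5.35 and Tcf7 at 3.80 lie in the sparse tails, and Lef1 at -0.24 and Foxo1 at -0.33 in the crowded middle.

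Levels of different genes were compared per length, as CPM per kilobase of all annotated exons (RPKM, from GENCODE M21). In WT, Satb1 came first at 20.1 ± 0.666 RPKM, over 19027 bases of annotated exons, the longest of the 7. Lef1 at 7.49 ± 0.76, Foxo1 at 5.31 ± 0.377, Tox at 0.964 ± 0.0777 and Bcl6 at 0.496 ± 0.0593 RPKM followed without overlap between neighbours. Bach2 at 0.144 ± 0.0354 and Tcf7 at 0.109 ± 0.122 RPKM came last, and their libraries overlapped. Satb1 thus exceeded 76.3% of 11952 tested and annotated genes in WT, and Tcf7 exceeded 2.21%.

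In the KO-labelled libraries Lef1 led, at 6.32 ± 0.372 RPKM, ahead of Foxo1 at 4.22 ± 0.185 RPKM. Tox at 1.53 ± 0.25 and Tcf7 at 1.38 ± 0.62 RPKM overlapped, as did Bach2 at 0.607 ± 0.107 and Satb1 at 0.492 ± 0.0659 RPKM, and Bcl6 was lowest at 0.136 ± 0.0248 RPKM. Satb1 moved from the first to the sixth place and exceeded 12.4% of genes, while Tcf7 was in the fourth and exceeded 23.9%. These places depend on dividing by all annotated exons, which are longest for Satb1. In CPM, Satb1 at 9.37 stood above Bach2 at 6.04 and Tcf7 at 3.63 in the KO-labelled libraries. Of the summed level of the 7 genes, Satb1 made up 58.1 ± 2.17% in WT and 3.37 ± 0.56% in the KO-labelled libraries, and Lef1 21.6 ± 1.75% and 43.1 ± 3.55%. The exon length of Tcf7 is less sure than the others, because the table places its end beyond the one GENCODE M21 gives.

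**Figure D3:**
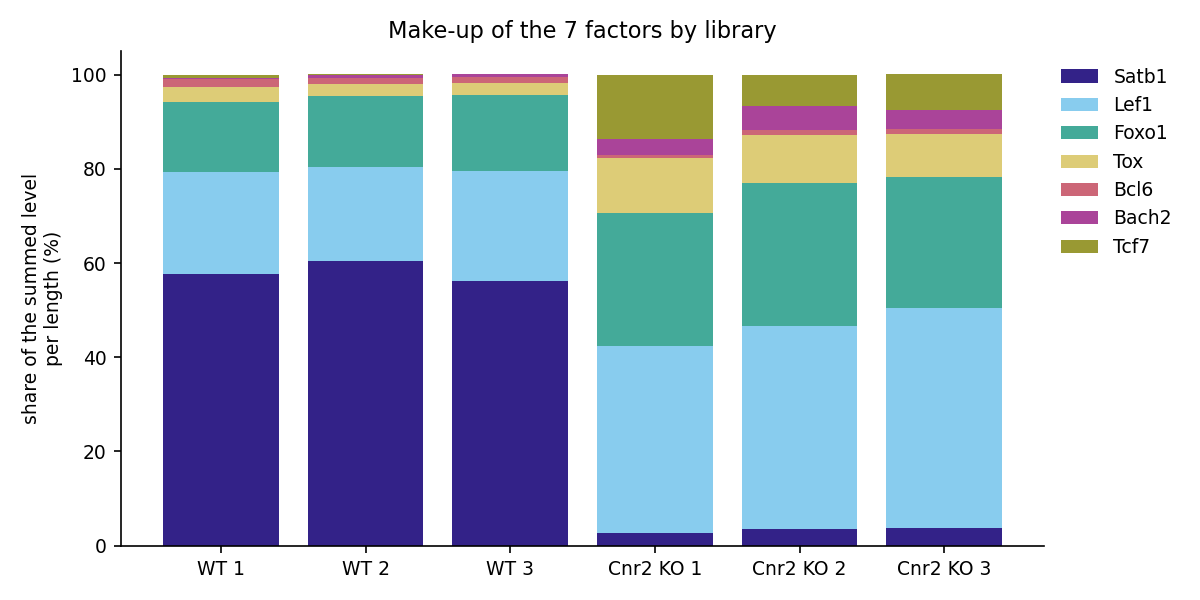
Stacked bars give the share (%, y axis) of each gene in the summed level per length of the 7 genes, 1 bar per library. Satb1 fills 58.1% of the WT bars on average and 3.37% of the KO-labelled ones, where Lef1 and Foxo1 hold most of the sum.

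Relatives of the 7 genes show which family members these cells carried. Of 11 listed relatives, 10 were in the table and 6 could be tested. Of these, 2 were called higher and 3 lower (edgeR), beside 33.1% and 33.2% of all genes. The 3 lower include Foxo4, which passed the low-count filter on its WT counts alone. Tox2 was by far the most abundant TOX gene, at 132 ± 14.9 RPKM in WT against 0.964 ± 0.0777 for Tox, and it was lower in the KO-labelled libraries (409, 431 and 506 against 272, 287 and 269 CPM, log2 fold change -0.70, SE 0.06, edgeR adjusted p = 9.2e-09). Tox4 was 181 ± 4.87 and 157 ± 11.3 CPM (log2 fold change -0.21, adjusted p = 2.41e-03). Tox itself differed in the other direction from both.

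Tcf7l1, another TCF gene, was higher at 7.54 ± 0.796 against 4.47 ± 0.311 CPM (log2 fold change 0.73, edgeR adjusted p = 4.17e-04), and in WT its 1.14 ± 0.0792 RPKM exceeded the 0.109 ± 0.122 RPKM of Tcf7. Bach1 rose with Bach2, from 2.24 ± 0.413 to 5.22 ± 1.99 CPM (log2 fold change 1.17, edgeR adjusted p = 6.75e-04). Among FOXO genes, Foxo3 stood at 8.02 ± 0.0724 and 8.02 ± 1.05 CPM (edgeR adjusted p = 0.992). Foxo4 stood at 0.988 ± 0.229 in WT and 0.372 ± 0.0785 CPM in the KO-labelled libraries. It passed the low-count filter on its WT counts alone, so these values are given as a description, with no test. Tcf7l2, Bcl6b and Tox3 were too low to test, all under 0.3 CPM in both groups, and Foxo6 has no row.

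Around TCF1 and LEF1, several beta-catenin pathway genes were higher in the KO-labelled libraries. Of 32 tested genes of the TCF/LEF pathway list, 17 were higher, 4 lower and 11 did not pass (edgeR), beside 33.1% and 33.2% of all genes, and the median log2 fold change was 0.24 against 0.01 over all genes. Axin2, a feedback inhibitor that TCF/LEF factors induce, stood at 1.79, 1.25 and 1.22 CPM in WT and at 10.2, 9.67 and 9.98 CPM in the KO-labelled libraries (log2 fold change 2.86, SE 0.19, adjusted p = 1.53e-10). Tnik, a kinase that activates TCF4, rose from 12.1 ± 0.259 to 39.1 ± 5.12 CPM, and Tle5, a short Groucho protein, from 89.7 ± 8.81 to 173 ± 6.84 CPM. This TCF4 is the product of Tcf7l2, which was too low to test here. Ctnnb1, which encodes beta-catenin, was 261 ± 10.2 and 334 ± 5.34 CPM (log2 fold change 0.36, adjusted p = 1.33e-06).

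The Groucho corepressors moved apart. Tle1 fell from 37.1 ± 1.13 to 17.8 ± 0.915 CPM, whereas Tle4 rose from 8.62 ± 1.09 to 22.4 ± 1.48 CPM and Tle3 from 117 ± 1.85 to 157 ± 6.02 CPM (edgeR adjusted p = 1.04e-09, 3.06e-09 and 3.83e-07). The other called decreases were the Wnt receptor Fzd7 (18.2 ± 1.14 to 7.97 ± 1.42 CPM), the corepressor Ctbp2 (28.9 ± 1.47 to 16.1 ± 1 CPM) and, by a log2 fold change of -0.13, the kinase gene Csnk1a1, whose call was lost without WT replicate 2 or KO-labelled replicate 3 (adjusted p = 0.07 and 0.0676). Nkd1 and Rnf43, which are Wnt-induced inhibitors like Axin2, did not pass (0.722 ± 0.44 against 0.499 ± 0.119 CPM and 6.61 ± 1.42 against 5.46 ± 0.515 CPM). Znrf3, a relative of Rnf43 on the same list, was called higher (9.1 ± 0.593 to 12 ± 1.69 CPM, log2 fold change 0.41, edgeR adjusted p = 0.00775).

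Genes described with TCF1 in memory and stem-like T cells went both ways. Of 28 listed genes, 22 were in the table and 19 were tested, of which 9 were higher and 7 lower in the KO-labelled libraries (edgeR). The called share was 84.2%, beside 66.3% of all genes, and the median log2 fold change was 0.28. Id3, an inhibitor of E proteins, rose from 9.54 ± 0.945 to 48.1 ± 4.13 CPM, and Ltb, which encodes lymphotoxin beta, from 5.42 ± 0.455 to 28.6 ± 3.81 CPM. Icos rose from 44.2 ± 1.92 to 89.5 ± 8.3 CPM. In the other direction Myb, a progenitor transcription factor, fell from 106 ± 8.28 to 27.1 ± 1.75 CPM, and Traf1 from 370 ± 7.65 to 109 ± 3.28 CPM. The largest falls of this list were those of Ccr7 and S1pr1, with log2 fold changes of -5.91 and -3.80. Differences of 2-fold or more were found in 4 genes upward and 6 downward. Among the listed genes without a row are Cxcr5, Cxcr3, Eomes, Xcl1 and Dapl1.

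The genes upstream of FOXO1, which cover the PI3K and AKT pathway and proteins that modify or bind FOXO1, differed in both directions. Of 30 tested genes 16 were higher, 7 lower and 7 did not pass (edgeR, beside 33.1% and 33.2% of all genes; median log2 fold change 0.22). Pik3cd, the lymphocyte PI3K catalytic subunit, rose from 362 ± 8.71 to 806 ± 21.8 CPM, and Pdpk1, which activates AKT, from 78.9 ± 3.45 to 134 ± 3.12 CPM. Phlpp1, a phosphatase that opposes the pathway, also rose, from 2.55 ± 0.39 to 6.39 ± 0.985 CPM. Akt1 stood at 647 ± 6.39 and 617 ± 25.2 CPM (adjusted p = 0.187).

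The same list holds genes that act on the FOXO1 protein. Prmt1, an arginine methyltransferase that protects FOXO1 from AKT, fell from 309 ± 2.5 to 138 ± 7.44 CPM (edgeR adjusted p = 1.63e-13). Among genes for the adaptor proteins that hold phosphorylated FOXO1 in the cytoplasm, Ywhab rose from 549 ± 29.5 to 779 ± 4.44 CPM, Ywhah from 607 ± 11.6 to 792 ± 14.7 CPM and Ywhaz from 1659 ± 127 to 1942 ± 10.4 CPM, while Ywhae and Ywhag fell, by log2 fold changes of -0.40 and -0.29.

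Described FOXO1 target genes went both ways, and 11 of the 29 tested differed by 2-fold or more, 6 of them upward and 5 downward. Among 29 tested targets there were 15 higher, 10 lower and 4 without a call (edgeR), a called share of 86.2% beside 66.3% of all genes, with a median log2 fold change of 0.28. The homing receptors Ccr7 (457, 455 and 487 against 7.65, 8.65 and 6.88 CPM) and S1pr1 (133, 139 and 126 against 8.42, 9.13 and 11.1 CPM) and the inhibitory receptor Ctla4 (43.4, 51.2 and 39 against 1.69, 2.67 and 2.22 CPM) were the lowest. The target list was drawn up with earlier results of these data known. Il7r and Klf2, which FOXO1 also maintains in T cells, were instead higher, at 55.1 ± 2.62 against 41.9 ± 0.42 CPM and 4.27 ± 0.633 against 2.49 ± 0.317 CPM.

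Several other listed targets were higher. Pink1, a mitochondrial quality control kinase, rose from 30.1 ± 0.523 to 119 ± 1.38 CPM, and Txnip, which curbs glucose uptake, from 71.7 ± 2.9 to 186 ± 13.6 CPM. Rbl2, the pocket protein p130, rose from 268 ± 3.21 to 446 ± 15.3 CPM, and Cdkn1b, the cell cycle inhibitor p27, from 3.21 ± 0.494 to 6.9 ± 1.1 CPM. Ccng2, Sesn1, Sesn3 and Trib2 were higher as well, with log2 fold changes of 0.95, 0.95, 0.64 and 1.54. Btg1, Bnip3, Irs2, Sod2, Ddit4, Cdkn1a and Sesn2 were called lower, with log2 fold changes from -1.29 to -0.22.

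**Figure D4:**
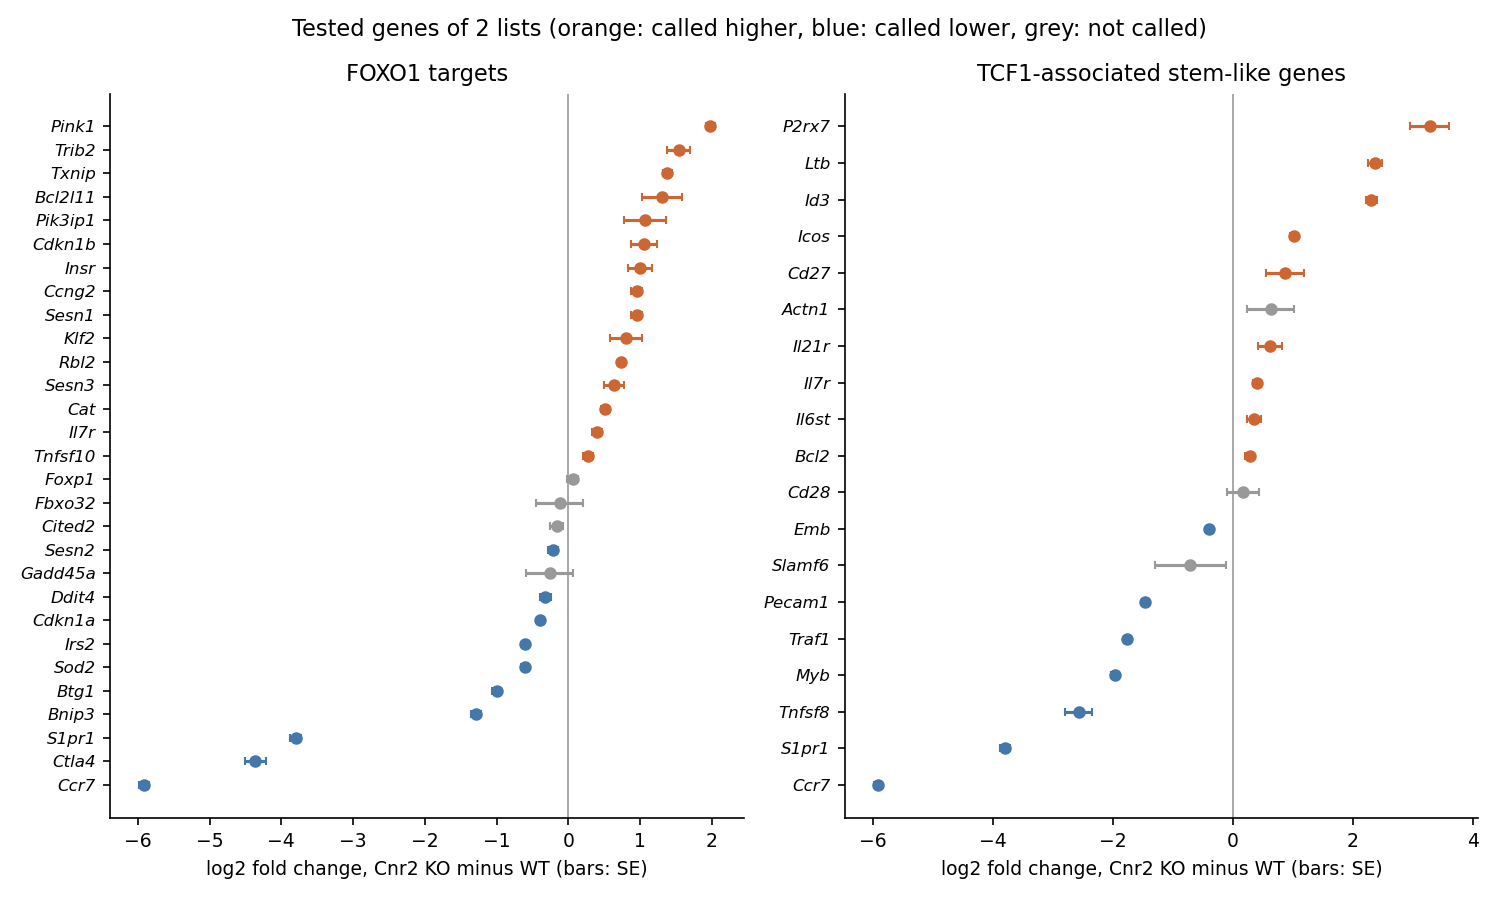
Log2 fold change (x axis, KO-labelled minus WT, bars are SE) of the tested genes of the FOXO1 target list (29 genes, left) and of the TCF1-associated list (19 genes, right), coloured by their edgeR call. Ccr7 at -5.91 and S1pr1 at -3.80 appear in both panels far to the left, and Pink1 at 1.98 and P2rx7 at 3.28 lie farthest to the right.

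Genes described as holding lymphocytes out of the cell cycle were called higher more often than lower. Among 34 tested quiescence genes there were 18 higher, 5 lower and 11 without a call (edgeR), 67.6% called beside 66.3% of all genes, of which 33.1% were higher and 33.2% lower (median log2 fold change 0.21). Cdkn2c, the CDK inhibitor p18, stood at 12.8, 13.1 and 14.8 CPM in WT and at 69.2, 66 and 67.8 CPM in the KO-labelled libraries (log2 fold change 2.33, SE 0.08, adjusted p = 5.79e-15). Klf6 rose from 84.2 ± 3 to 174 ± 3.74 CPM, and the pocket protein genes Rb1, Rbl1 and Rbl2 were all called higher. The RNA-binding protein genes Zfp36l2 and Zfp36 fell, from 194 ± 21.1 to 73.3 ± 2.87 CPM and from 36.2 ± 3.29 to 21 ± 1.85 CPM, whereas their relative Zfp36l1 rose from 17.1 ± 2.48 to 33.4 ± 5.93 CPM. Btg1 fell from 158 ± 14.1 to 79.1 ± 0.886 CPM and Btg2 rose from 19.6 ± 1.32 to 30.3 ± 1.28 CPM.

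For the repressors BACH2 and BCL6, partner genes differed little and described targets differed more. Of 22 tested partners, 7 were higher, 6 lower and 9 did not pass (edgeR), and none differed by 2-fold. The called share was 59.1%, beside 66.3% of all genes, and the median log2 fold change was -0.09. Mafk, a small Maf partner of BACH2, fell from 78.7 ± 3.34 to 50.2 ± 2.76 CPM, while the corepressor genes Ncor1 and Tbl1xr1 rose, from 167 ± 11.1 to 245 ± 11.7 CPM and from 66.7 ± 1.44 to 104 ± 5.27 CPM. Mta3 was higher and Kdm2b and Hdac2 were lower, with log2 fold changes of 0.53, -0.62 and -0.38. Bcor, the corepressor bound by the BTB domain of BCL6, was 81.4 ± 3.85 and 89.1 ± 4.99 CPM (edgeR adjusted p = 0.0553, and from 0.0215 to 0.0484 under 6 of the alternatives).

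Of 25 tested genes described as repressed by BACH2 or BCL6, 9 were higher, 11 lower and 5 did not pass (edgeR). The called share was 80%, beside 66.3% of all genes, and the median log2 fold change was -0.09. Gata3 rose from 288 ± 13.5 to 1073 ± 18.7 CPM, Nfkb1 from 279 ± 5.74 to 944 ± 64.7 CPM, and Nqo1 from 36.8 ± 0.961 to 184 ± 33.1 CPM. Irf4 fell from 309 ± 19.3 to 60 ± 7.69 CPM, Batf from 272 ± 19.4 to 59.2 ± 1.53 CPM and Myc from 323 ± 24.5 to 91.3 ± 3.37 CPM. Prdm1, the plasma cell regulator that both repressors hold down, was 99 ± 7.74 and 78.8 ± 0.715 CPM (log2 fold change -0.33, adjusted p = 8.66e-05).

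Factors of early innate lymphoid development other than Tcf7 and Tox changed in both directions. Among 23 tested there were 12 higher, 7 lower and 4 without a call (edgeR). The called share was 82.6%, beside 66.3% of all genes, and the median log2 fold change was 0.15. Besides Gata3 and Id3, Rora rose from 121 ± 1.68 to 272 ± 13.6 CPM and Bcl11b from 91.4 ± 8.37 to 160 ± 2.6 CPM. Nfil3, which acts before Tcf7 and Tox in the lineage, fell from 209 ± 1.66 to 97.4 ± 2.25 CPM, and Zeb2 from 43.8 ± 1.22 to 23.6 ± 0.418 CPM. Zbtb16, the precursor factor PLZF, was too low to test, at 0.42, 0.101 and 0.37 CPM in WT, and was listed at 0 in the KO-labelled libraries.

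Genes for SATB1's protein partners and for general chromatin organisers differed by small amounts beside the 40.8-fold difference of Satb1. Among 24 tested there were 9 higher, 7 lower and 8 without a call (edgeR; median log2 fold change 0.09), and 1 differed by 2-fold. The called share of 66.7% was near the 66.3% of all genes. The gene that differed by 2-fold was Kat2b, the acetyltransferase PCAF, at 14.4 ± 1.17 and 30 ± 1.4 CPM. Hdac1, a deacetylase gene, fell from 341 ± 14.2 to 276 ± 13.5 CPM, while the cohesin genes Rad21 and Stag1 rose from 128 ± 4.4 to 166 ± 6.38 CPM and from 67.2 ± 2.01 to 96.7 ± 3.64 CPM. Ctcf was 98.3 ± 6.72 and 109 ± 5.48 CPM (log2 fold change 0.16, edgeR adjusted p = 0.0271), with overlapping groups, and its call was lost without WT replicate 1, WT replicate 2 or KO-labelled replicate 3 (adjusted p = 0.123, 0.12 and 0.13) and with no low-count filter (adjusted p = 0.0563).

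**Figure D5:**
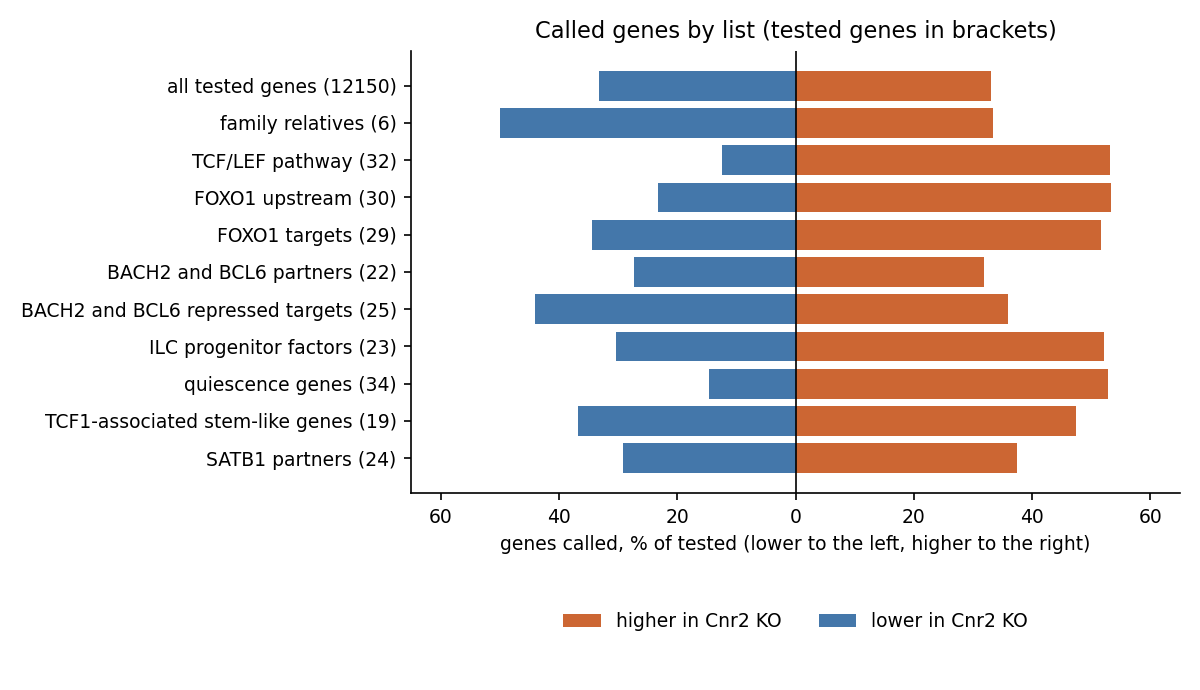
Bars give the share of tested genes (%, x axis) called higher (orange, right) and lower (blue, left) in the KO-labelled libraries, for 10 lists and for all 12150 tested genes at the top, with the number tested in brackets. All lists but that of BACH2 and BCL6 partners reach farther right than the 33.1% of all genes, and the TCF/LEF and quiescence lists reach least far left, beside 33.2% of all genes.

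Several of the 7 genes are also known from T and B cells, so markers of those cells were measured beside them. T cell markers summed to 102 to 107 CPM in WT and to 182 to 198 CPM in the KO-labelled libraries, with 12 of 16 in the table. Of 11 tested, 6 were higher and 2 lower (edgeR), a called share of 72.7% beside 66.3% of all genes. Cd4, Cd8a, Cd8b1 and Cd5 have no row. Cd3g rose from 4.65 ± 0.627 to 17.2 ± 1.41 CPM, Lat from 20.2 ± 0.994 to 47.1 ± 4.85 CPM and Trbc2 from 39.9 ± 2.05 to 67.4 ± 4.07 CPM. Cd3e stood at 1.27 ± 0.454 and 2.22 ± 0.285 CPM, a call lost without WT replicate 1 or 2 or KO-labelled replicate 1 or 2 (edgeR adjusted p from 0.058 to 0.142). The 2 lower were Trac, at 1.48 ± 0.282 and 0.464 ± 0.204 CPM, and Cd6, at 1.52 ± 0.434 and 0.322 ± 0.333 CPM. Trac and Cd6 passed the low-count filter through their WT counts, so their values are a description. B cell markers summed to 19.5 to 21.5 and 52.6 to 56.2 CPM, from Cd79b, Ighm and Cd22 alone, and among those without a row are Cd79a, Ms4a1, Pax5, Ebf1, Ighd and Vpreb3. Their part in the higher Tcf7 and Bach2 levels was not tested, and in RNA from pooled cells fewer cells of a type and less RNA per cell cannot be told apart.

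Markers of other cells were low. Dendritic cell markers, 7 of 10 in the table, summed to 30.2 to 34.1 CPM in WT and 37.7 to 44.4 CPM in the KO-labelled libraries. Clec9a, Cd209a and Siglech were missing. Of 3 tested, 1 was higher and 1 lower (edgeR), beside 33.1% and 33.2% of all genes. The lower gene, Batf3, passed the low-count filter on its WT counts alone. Macrophage markers, 3 of 10, summed to 1.05 to 1.67 and 3.44 to 5.66 CPM, ILC3 markers, 4 of 8, to 4.66 to 4.83 and 0.822 to 1.16 CPM, and NK cell markers, 2 of 8, to 56.7 to 77.7 and 46.1 to 59.8 CPM, mostly Gzma.

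Genes with the pattern most like each of the 7 were sought among tested genes over the 6 libraries. The measure was the root mean square distance between log2 levels after each gene was centred on its mean. Predicted genes, genes named after clones, and pseudogenes were left out of the search. For Satb1 the nearest were Mycl (distance 0.239), a MYC family gene, Ccr7 (0.317) and Shisa3 (0.323). Their fitted log2 fold changes were -6.7, -5.91 and -8.4, against -5.35 for Satb1. Mycl and Shisa3 averaged only 0.481 and 0.0363 CPM in the KO-labelled libraries. At such levels the pseudocount of 0.5 CPM shrinks differences, so these distances understate how far the fold changes lie apart. For Lef1 they included Pla2g6 (0.025) and Sart1 (0.03), and for Foxo1 Map1s (0.024), Nedd8 (0.025) and Scamp4 (0.026). Vps13b (0.046), Fam214a (0.049) and Abhd2 (0.049) were nearest to Tox. Without WT replicate 2, all 3 names were kept for Satb1, 2 of 3 for Lef1 and Tox and 1 of 3 for Foxo1. Tcf7, Bach2 and Bcl6 were under a mean of 5 CPM and were not compared.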

How the data were processed

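RNA was sequenced from 6 libraries of lung ILC2s, 3 per group. Per the labels' protocols, 10 pg of RNA went into a low-input cDNA kit. The authors deposited expected counts per gene (estimated counts that need not be whole), and 59.1 to 81.2% of a library's values were whole to within 0.02. The submitters' processing notes name Partek 10.0, STAR 2.7.8, DESeq2 and build mm10, and the counting method is not given in the sources used here. Counts were rounded and tested with edgeR 4.0.16 (R 4.3.3), with TMM, with filterByExpr set to a count of 10 and a total of 15, and with genotype alone in the design. This filter lets a gene pass on the counts of 1 group. Foxo4, Trac, Cd6, Batf3, Hhex and Klf4 are among the genes that did so, and the list counts include them. Adjusted p-values are Benjamini-Hochberg over 12150 genes, and SE is the absolute log2 fold change divided by the square root of F. Folds of the 7 genes are ratios of mean CPM. A pseudocount of 0.5 CPM entered log2 levels. GENCODE M21 (GRCm38, the build named mm10) matched 16233 of 16588 symbols.

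The 7 genes, 10 gene lists and 7 marker lists were chosen with earlier results of these data known. Named genes are the 7, Cnr2, tested family relatives, up to 3 called genes per list and direction with the smallest p, a mean of at least 5 CPM and no overlap between groups, and the nearest genes by pattern; further list genes were named after their values were seen. The test was checked on simulated data. Libraries of 1 group were further apart than sampling noise, with a chi-square of 4.11 to 8.94 for each gene on average, and each was 1 replicate. The p-values reflect the spread among these libraries, which may be technical. Same-numbered libraries of the 2 groups are not stated to be paired. Alternatives were other scalings, filters and tools (DESeq2 1.42.0, limma 3.58.1 voom), a replicate block and leaving out each library. Intervals and floors cover counting error only. Results for some listed genes are not reported here.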

Additional observations from a re-analysis of the deposited data

How the results depend on the processing

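The log2 fold changes of the 7 genes kept their direction and moved by less than 1 SD between libraries under all alternatives run, and the counts of called genes of the 10 gene lists stayed within 1.5 times the reported ones; marker lists were not recounted. Leaving out 1 library at a time gave -5.43 to -5.24 for Satb1, 3.34 to 4.32 for Tcf7, 1.91 to 2.16 for Bach2, -1.94 to -1.71 for Bcl6, 0.54 to 0.77 for Tox, -0.37 to -0.28 for Foxo1 and -0.31 to -0.17 for Lef1. Over all genes it gave 3749 to 3869 called higher and 3771 to 3957 called lower. Deviations of same-numbered libraries from their group means correlated at 0.0779, 0.00999 and 0.0606, and those of differently numbered libraries at -0.0752 to 0.0153. With 3 libraries per group these values cannot decide whether replicate numbers mark pairs. With the replicate block 4061 genes were called higher and 4113 lower, against 4019 and 4034 without it. Foxo3, not called in any fit, changed sign at log2 fold changes of 0.01 with total counts only, 0.00 with the replicate block, with limma-voom and without WT replicate 2, and lay between -0.07 and 0.10 when single libraries were left out. Nkd1, also not called, lay between -0.84 (without WT replicate 2) and 0.18 (without WT replicate 3). The decrease of Foxo4 was -1.24 without KO-labelled replicate 2, and that of Gzma, the one called NK cell marker, was -0.38 with DESeq2 (adjusted p = 0.0554), which ends its call. DESeq2 called 3883 genes higher and 3943 lower. Depth limits Tcf7, Bcl6 and Bach2 most, at 0 to 107 counts for Tcf7 in libraries where 3 counts equal 0.0232 to 0.166 CPM.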
